A study of Mus musculus with 2 samples.

Results

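Genes of the translation initiation and elongation factors were examined in RNA from mouse small-intestinal villi. They were taken by name: every gene symbol beginning with Eif1 to Eif6, Eef1 or Eef2, represented by its row of highest mean, without the sex-linked pair Eif2s3x and Eif2s3y and without the interferon-inducible kinase gene Eif2ak2. The rule found 57 of the 20720 symbols in the deposited table. Because Eif2s3x and Eif2s3y encode the gamma subunit of eIF2, that complex is described here by its alpha and beta subunits alone.

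Protein synthesis starts when eIF2 carries the initiator methionyl-tRNA to the small ribosomal subunit, where eIF1, eIF1A, eIF3 and eIF5 join it. The eIF4 factors bind the cap of a messenger RNA, unwind its leader and bring it to that complex. The GTPase eIF5B then promotes the joining of the large subunit to it. During elongation, eEF1A delivers each aminoacyl-tRNA, the eEF1B complex recharges eEF1A with GTP, and eEF2 moves the ribosome by a codon. In mammals many of the elongation factor genes and several eIF3 genes belong, like ribosomal protein genes, to the mRNAs whose translation depends on mTORC1. The intestinal epithelium renews itself continually and makes large amounts of digestive and secreted protein.

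The study compared a library labelled as a double knockout (dKO) of Ring1a (Ring1) and Ring1b (Rnf2), the E3 ligases of Polycomb repressive complex 1, with a control library. The dKO-labelled mouse was C57BL/6 with Rosa26-CreERT2, Cdkn2a-/-, Ring1a-/- and Ring1bf/f, and the control mouse was C57BL/6 with Rosa26-CreERT2 and Cdkn2a-/- only, so Cdkn2a was absent by design from both. Both were killed 6 days after 3 injections of tamoxifen, which activates the Cre enzyme. The Rosa26 locus is active in most cell types, so deletion was not limited to the epithelium by its driver. No age is stated in the labels. There was 1 library per genotype: no difference below has a replicate check, no test across animals was possible, and intervals are 95% exact intervals that cover counting error only.

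The dKO-labelled library held 1058196 recovered reads and the control library 775827. The targeted genes were not lower beyond counting error: Rnf2 had 82 reads in the dKO-labelled library and 59 in the control (ratio 1.25, 0.886 to 1.78), and Ring1 had 10 reads in each. The table has 1 value per transcript and no exon counts, so a deleted exon could not be looked at. All 11 enterocyte markers were measured, with 14911 reads in the dKO-labelled library and 11347 in the control, so the defining cells of the labelled tissue were present in each. Xist had 1 read in the dKO-labelled library and 80 in the control, and Y-linked Ddx3y had 131 and 0, and a difference between the sexes cannot be told apart from one between the genotypes.

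A gene was called measured when the mean of its normalised read counts in the 2 libraries was at least 20, and 41 of the 57 genes were measured. A gene could pass through 1 library alone, which among genes of low count favours large ratios. The other 16 stood at low counts in both libraries. Among them were genes of the scaffold of the cap-binding complex, Eif4g1 (0 reads in each), Eif4g3 (1 read in the dKO-labelled library and 0 in the control) and the related Eif4g2 (10 and 11), and also Eif5a (0 and 1), which encodes the hypusine-bearing factor, Eif5 (9 and 7), the GTPase activator of eIF2, and Eef1d (2 and 0), a nucleotide exchange factor. The unmeasured genes were mostly those with several annotated transcripts. Of 37 genes with 1 RefSeq transcript in the GRCm38.p6 tables, 35 were measured (94.6%), against 6 of 20 with 2 or more (30.0%). Over all genes of the table the shares were 29.5% of 13379 and 28.5% of 7053. Transcript number also went with the ratios described below: of the measured genes, 21 of 35 with 1 transcript were 2-fold higher or more in the dKO-labelled library (median log2 ratio 1.12), against 0 of 6 with several (median 0.29), which were Eif1a, Eif2ak3, Eif3k, Eif4h, Eif4e and Eif4a1. Over all measured genes the shares were 27.7% of 3945 and 23.4% of 2012. The part of transcript number in the counts and ratios was not tested, and a count near 0 is not read here as absence of the mRNA. The remaining unmeasured genes were Eif4a2 (6 reads in the dKO-labelled library and 7 in the control), Eif4e2 (23 and 5), Eif2d (8 and 10), Eif5a2 (8 and 4), Eef2k (4 and 4), Eef1a2 (1 and 1), Eif2b3 (1 and 1), Eif4enif1 (0 and 1), and Eif2b4 and Eif4e1b with 0 in each.

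Translation factor genes were mostly higher in the dKO-labelled library with the deposited scaling. On log2((dKO + 1)/(control + 1)) of the normalised counts, 37 of the 41 measured genes lay above 0, against 75.4% of the 6000 genes measured in all. A 2-fold excess or more was seen in 21 of the 41 (26.2% of the 6000), and a 2-fold deficit in 0 (4.18%). Their median log2 ratio was 1.01, beside 0.51 for all measured genes. A ratio above 1 beyond counting error was found for 31 of the 41 and a ratio below 1 for 1, against 52.5% and 12.2% of measured genes. In summed reads the 57 genes took 1.26% of the dKO-labelled library (13373 reads) and 0.943% of the control library (7314 reads), a share that does not depend on the size factors. The count of 2-fold genes did depend on them: when the median of all measured genes was set to 0, 2 of the 41 lay at least 2-fold above it and 1 at least 2-fold below, against 11.8% and 10.4% of measured genes. The group therefore stood above the middle of the measured genes, with 33 of 41 above their median ratio, but held few genes at its edges.

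**Figure D1:**
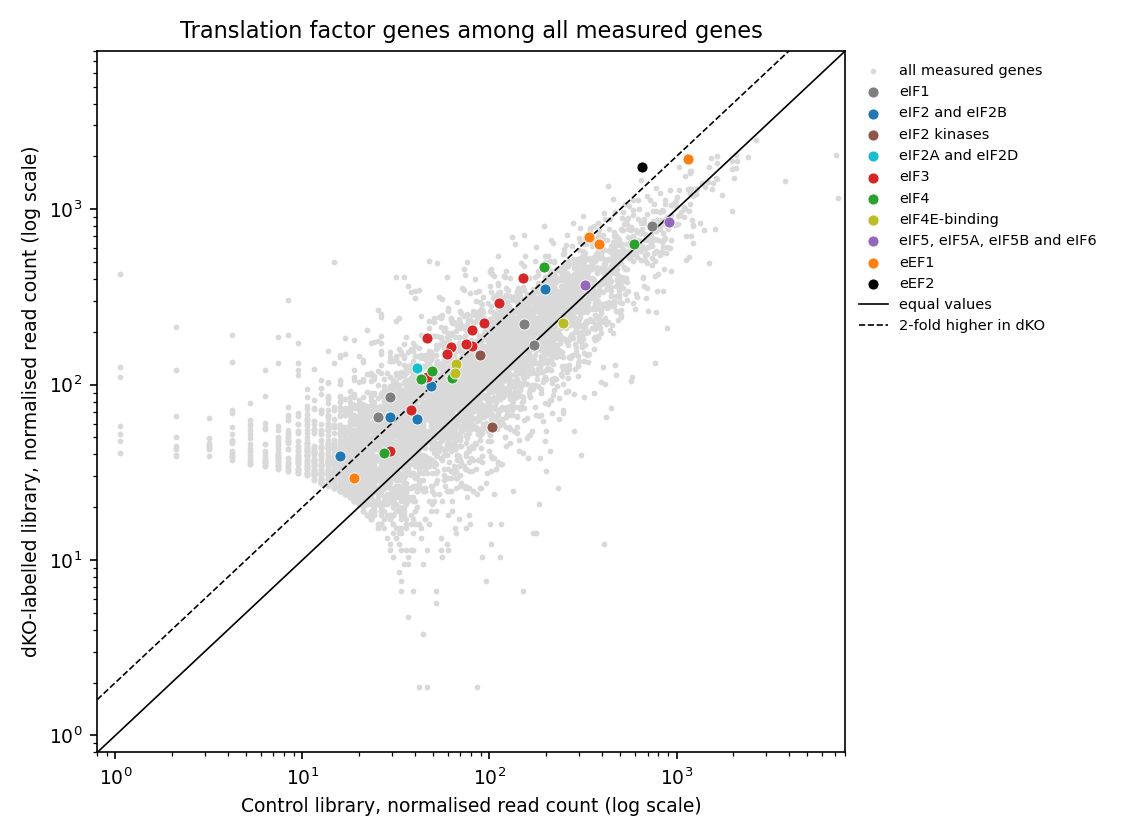
Normalised read count of each gene in the dKO-labelled library (vertical, log scale) against the control library (horizontal, log scale); grey points are the 6000 measured genes and coloured points the 41 measured translation factor genes by family. Most coloured points lie above the solid line of equal values, 21 of them at or above the dashed line of 2-fold.

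The nearest genes on either side of the 2-fold limit were Eif2b5 (log2 ratio 1.01) inside it and Eif4ebp2 (0.97) outside it. In the authors' deposited table none of the 57 genes had an unadjusted DESeq p-value under 0.05, and the smallest, 0.154, belonged to Eif3l. Over the whole of that table such a value was listed for 123 transcripts, from a design with no replicates. The families are described roughly in the order in which they act.

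The eIF1 family, which guards the choice of the start codon, was divided. Eif1, encoding eIF1 itself, had 846 reads in the dKO-labelled library and 704 in the control (ratio 1.08, 0.979 to 1.20), and its counting interval included equality. Its close relative Eif1b had 68 and 23 reads, a ratio of 2.67 (1.64 to 4.48). The 2 genes for eIF1A differed in the same way. X-linked Eif1ax had 89 reads in the dKO-labelled library and 27 in the control (2.97-fold, 1.91 to 4.76), whereas Eif1a had 176 and 163 (0.973, 0.782 to 1.21). Counting intervals did not overlap within either pair. Eif1a has 2 RefSeq transcripts and the other 3 genes 1 each. For Eif1ax, the genotype cannot be told apart from the sex of the animals. Eif1ad, which encodes a protein with an eIF1A domain, had 231 and 144 reads (1.45-fold, 1.17 to 1.79), and 15.1% of its 50-base words also occur in other transcripts, chiefly those of Banf1. For Eif1 that share was 31.6%, with Emd among others, and for Eif1b 0.81%. The median log2 ratio of the 5 genes was 0.53, next to the 0.51 of all measured genes, and became -0.11 with upper-quartile scaling.

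The 5 measured genes of eIF2 and its exchange factor eIF2B were all higher in the dKO-labelled library, 3 of them at least 2-fold. Of all measured genes 75.4% were higher and 26.2% at least 2-fold, and 5 genes are too few to set against these shares. The alpha subunit gene Eif2s1, whose protein is the target of the stress kinases, had 68 reads in the dKO-labelled library and 27 in the control (2.27-fold, 1.43 to 3.69). The beta subunit gene Eif2s2 had 366 and 187 (1.76-fold, 1.48 to 2.12), with 27.8% of its 50-base words shared with another transcript. Among the eIF2B genes, Eif2b1, encoding the regulatory alpha subunit, had 40 and 14 reads (2.58-fold, 1.37 to 5.12) and Eif2b5, encoding the catalytic epsilon subunit, 103 and 45 (2.06-fold, 1.44 to 3.00). Eif2b2, for the beta subunit, had the lowest ratio of this group (66 and 38 reads, 1.57-fold, 1.03 to 2.40). All 5 lay above the median of measured genes, 0 of them by 2-fold or more, and with upper-quartile scaling Eif2b2 stood at -0.0097, just under equality. The gamma subunit gene on the X chromosome, Eif2s3x, which the naming rule leaves out, had 202 reads in the dKO-labelled library and 125 in the control, and its Y-linked partner Eif2s3y had 116 and 0.

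Of the kinases that phosphorylate eIF2 alpha, Eif2ak3 was lower in the dKO-labelled library and Eif2ak1 higher. Eif2ak3, encoding PERK, the kinase of the endoplasmic reticulum stress response, had 59 reads in the dKO-labelled library and 97 in the control, a ratio of 0.548 (0.390 to 0.766). With the deposited size factors it was the only measured translation factor gene below equality beyond counting error. Eif2ak3 has 2 RefSeq transcripts, and it was 2-fold or more below the control with total-count, TMM and upper-quartile scaling. Eif2ak1, encoding the haem-regulated kinase HRI, had 155 and 83 reads (1.68-fold, 1.28 to 2.23), and 12.1% of its 50-base words are shared with other transcripts such as those of Aimp2. The 2 counting intervals did not overlap. Eif2ak2, which encodes the kinase PKR and which the naming rule leaves out, lay at equality with 148 and 132 reads (1.01-fold, 0.794 to 1.29). Eif2a, which encodes eIF2A, a factor that can deliver initiator tRNA apart from eIF2 and is no subunit of it, had 130 reads in the dKO-labelled library and 38 in the control (3.08-fold, 2.13 to 4.55), the second-highest ratio among the measured translation factor genes.

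Genes of eIF3, the largest initiation factor, whose subunits form a scaffold on the small ribosomal subunit, stood higher than most other families in the dKO-labelled library. All 12 genes in the table were measured, and 10 were at least 2-fold higher, against 26.2% of measured genes. Summed over the complex there were 2284 reads in the dKO-labelled library and 820 in the control, 2.51-fold (2.32 to 2.72). The other 45 translation factor genes had 11089 and 6494 reads, 1.54-fold (1.49 to 1.59). These intervals did not overlap, but they cover counting error of the sums and not the spread between genes. Abundant genes weigh most in such sums. Eef1a1, Eef2, Eif6 and Eif1 held 41.9% of all translation factor reads in the dKO-labelled library and 44.8% in the control. By gene, the median log2 ratio was 1.28 for eIF3 and 0.78 for the other measured factors. Eif3l held the highest ratio, and without it the complex was 2.43-fold higher (2.23 to 2.64). Sequences upstream of several of these genes carry the same short motif and are shown first, as a description. The part of the motif in the ratios was not tested.

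The motif searched was the ETS-type core CCGGAAG, also read as CTTCCGG on the other strand, in RefSeq promoters of GRCm38.p6 that run from 250 bases before to 50 bases after an annotated start. It was present in 5 of the 9 eIF3 genes with a promoter in the table (55.6%), in 12 of 32 measured translation factor genes (37.5%), in 22.2% of 4774 measured genes and in 9.93% of all 27025 genes. Among measured translation factor genes it was as frequent in those at least 2-fold higher (6 of 16) as in the others (6 of 16). A match is a description of these letters and not a site of binding. The 90 bases before the annotated start of the 5 eIF3 genes are given 5′ to 3′ on the strand of the gene, with the motif in capitals. They lie on GRCm38.p6 at chr7:126566367-126566456 (minus strand) for Eif3c, chr15:77970825-77970914 (minus) for Eif3d, chr9:20898591-20898680 (minus) for Eif3g, chr15:79075133-79075222 (plus) for Eif3l and chr2:105017028-105017117 (minus) for Eif3m.
Eif3c: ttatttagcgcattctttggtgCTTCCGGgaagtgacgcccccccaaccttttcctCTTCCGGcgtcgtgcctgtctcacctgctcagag
Eif3d: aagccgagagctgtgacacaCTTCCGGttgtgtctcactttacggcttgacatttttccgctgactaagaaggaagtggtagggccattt
Eif3g: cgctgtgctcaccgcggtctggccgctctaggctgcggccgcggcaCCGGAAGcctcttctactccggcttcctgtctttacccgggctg
Eif3l: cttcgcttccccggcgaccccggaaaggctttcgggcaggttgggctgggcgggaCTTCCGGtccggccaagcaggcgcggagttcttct
Eif3m: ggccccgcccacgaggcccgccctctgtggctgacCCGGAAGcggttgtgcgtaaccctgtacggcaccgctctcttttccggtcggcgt
Eif3c carried the motif at 2 places and the other 4 genes at 1. The promoters of Eif3a, Eif3b, Eif3f and Eif3k held no match, and Eif3e, Eif3h and Eif3i had no entry.

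Of the eIF3 subunits, Eif3l, which encodes a peripheral subunit, had 192 reads in the dKO-labelled library and 43 in the control, 4.02-fold (2.88 to 5.74). Its partner in the periphery of the complex, Eif3k, had 43 and 27 reads (1.44-fold, 0.867 to 2.42), the lowest ratio of the complex and the only interval among the 12 that included equality. The intervals of Eif3l and Eif3k did not overlap. Eif3k has 3 RefSeq transcripts and the other 11 genes have 1 each. Between these ends the genes were close to each other. The largest scaffold subunit gene Eif3a had 157 and 55 reads (2.57-fold), and its scaffold partner Eif3c had 174 and 76 (2.06-fold). Eif3e had 171 and 58 (2.66-fold), Eif3f 423 and 143 (2.67-fold, 2.20 to 3.25), Eif3h 307 and 106 (2.61-fold, 2.09 to 3.29) and Eif3m 115 and 43 (2.41-fold). These 4 encode the remaining subunits with PCI or MPN domains. Of the subunits that contact the mRNA channel, Eif3b had 214 reads in the dKO-labelled library and 76 in the control (2.54-fold), Eif3i 179 and 70 (2.30-fold) and Eif3g 74 and 35 (1.91-fold). Eif3d, whose protein can bind the cap of some mRNAs, had 235 and 88 (2.41-fold). The intervals of all 10 genes between Eif3l and Eif3k overlapped each other. Of the 50-base words of Eif3m, Eif3h, Eif3e and Eif3d, 39.95%, 26.2%, 22.0% and 18.4% occur in other annotated transcripts (Eif3s6 pseudogenes for Eif3e, Ccdc73 among others for Eif3m), so their reads are less certain, while Eif3l, Eif3f, Eif3b and Eif3a had 0% shared.

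**Figure D2:**
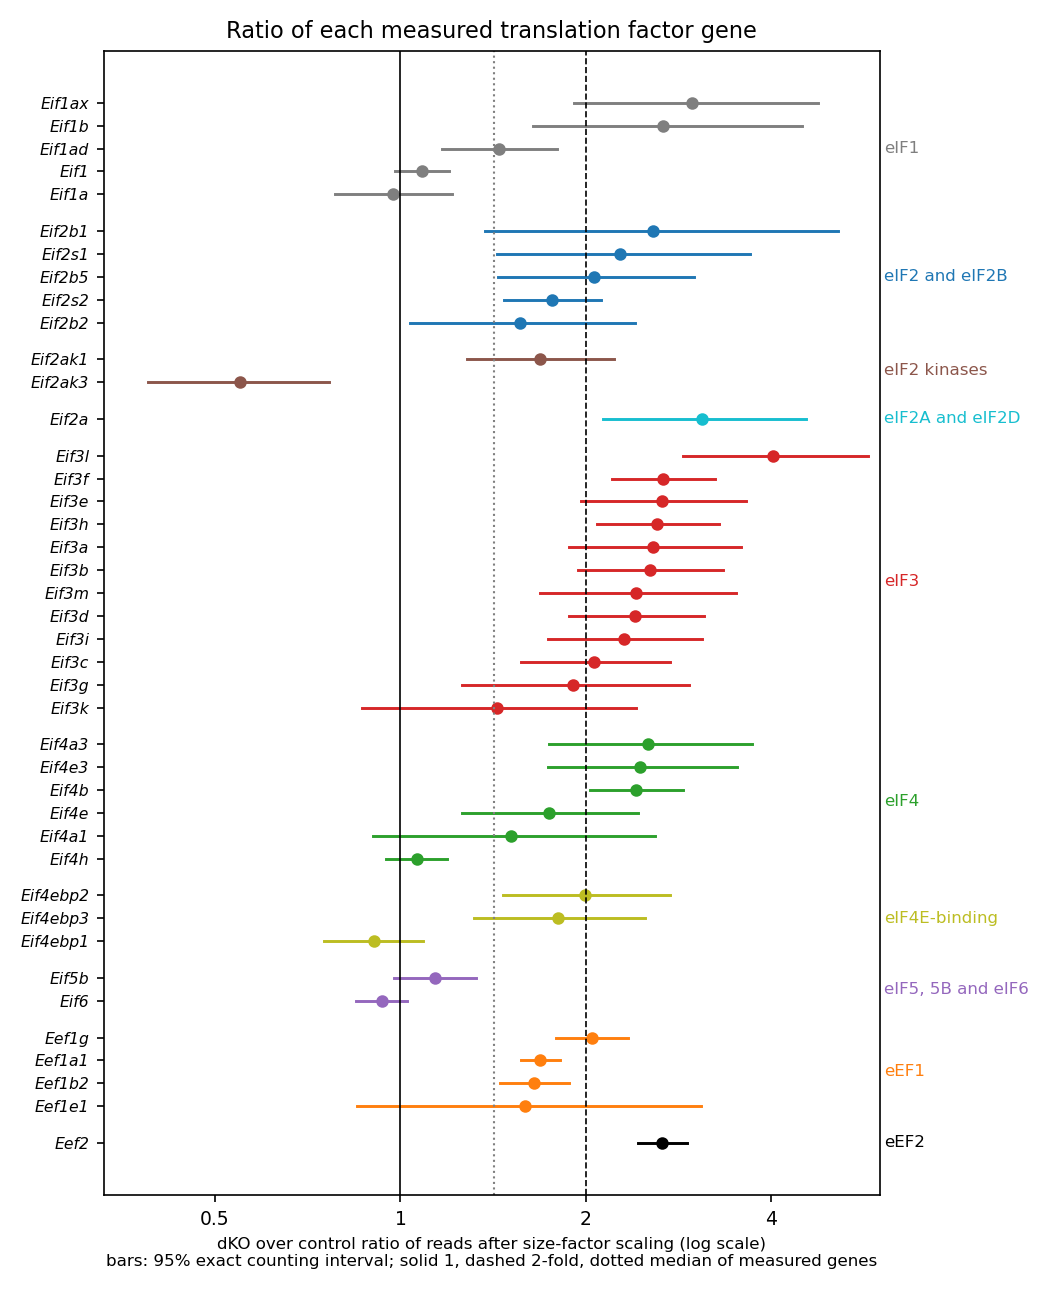
Ratio of dKO to control reads after size-factor scaling (horizontal, log scale) for the 41 measured genes by family, with 95% exact counting intervals; lines mark equality (solid), 2-fold (dashed) and the median of measured genes (dotted). Of the 12 eIF3 genes 11 lie to the right of the dotted line and Eif3k on it, and Eif2ak3 alone lies wholly left of equality.

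The order of eIF3 levels per transcript length was similar in both libraries. In reads per kb of transcript at equal depth (RPKM, computed from the recovered reads and total counts), Eif3h was highest (224 in the dKO-labelled library, 199.7 to 250.5, and 105.5 in the control, 86.4 to 127.6) and Eif3a lowest (28.9, 24.6 to 33.9, and 13.8, 10.4 to 18.0). Next to Eif3h stood Eif3f (159 and 73.3) and Eif3i (151 and 80.3), whose intervals overlapped in each library. In the control the interval of Eif3i (62.6 to 101.5) also overlapped that of Eif3h. Eif3l stood at 93.4 (80.7 to 107.6) in the dKO-labelled library, between Eif3m and Eif3e, and at 28.5 (20.6 to 38.4) in the control, where only Eif3a was lower and its interval overlapped those of Eif3b, Eif3c, Eif3e, Eif3g, Eif3k and Eif3m. The low per-length value of Eif3a was measured over a transcript of 5125 bases, and levels of this kind rest on GENCODE M21 lengths.

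**Figure D3:**
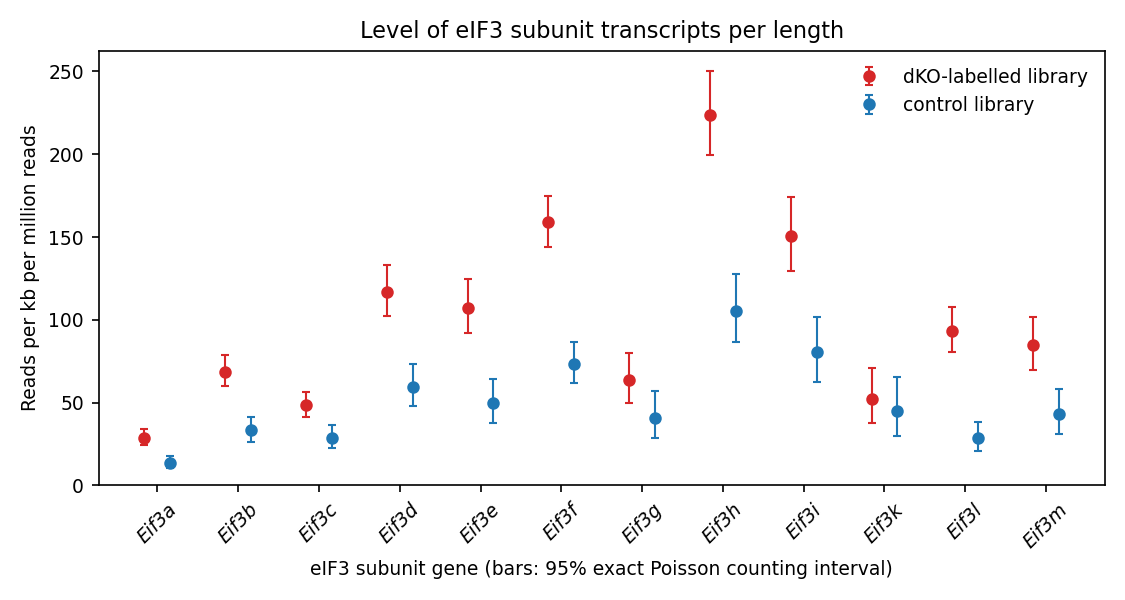
Level of each eIF3 subunit transcript in RPKM (vertical), in the dKO-labelled library (red) beside the control library (blue), with 95% exact Poisson counting intervals. Every red point lies above its blue partner, and the intervals overlap for Eif3g and Eif3k.

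Within eIF4, the cap-binding and helicase group, 3 of the 6 genes measured passed 2-fold in the dKO-labelled library. The share of all measured genes was 26.2%, and 6 genes are too few to set against it. Eif4b, encoding a cofactor of the helicase, had 495 reads in the dKO-labelled library and 185 in the control (2.41-fold, 2.03 to 2.87). The related cofactor gene Eif4h had 662 and 562 (1.06-fold, 0.947 to 1.19), and the 2 intervals did not overlap. Eif4h has 2 RefSeq transcripts and Eif4b has 1. The helicase gene Eif4a1 had 42 and 25 reads (1.51-fold, 0.902 to 2.59), with 65.3% of its 50-base words shared with other transcripts, Eif4a-ps4 among them. Eif4a3, a helicase of the exon junction complex in spite of its name, had 112 and 40 (2.52-fold, 1.75 to 3.72), with 24.4% of these words shared. The cap-binding protein gene Eif4e had 114 reads in the dKO-labelled library and 59 in the control (1.74-fold, 1.26 to 2.43), and its relative Eif4e3 had 125 and 46 (2.45-fold, 1.73 to 3.51). The median of the 6 genes was 1.02. As the scaffold genes were not measured, the makeup of the cap-binding complex cannot be read from these counts.

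The eIF4E-binding proteins hold eIF4E away from the scaffold until mTORC1 phosphorylates them. Of their 3 measured genes 0 were at least 2-fold higher, too few genes to set against the 26.2% of all measured genes. Eif4ebp1 had 234 reads in the dKO-labelled library and 233 in the control, a ratio of 0.905 (0.752 to 1.09) with the deposited size factors. Its log2 ratio was -0.14 with these factors and -0.44 with total counts. Eif4ebp2 had 137 and 62 (1.99-fold, 1.46 to 2.73) and Eif4ebp3 122 and 61 (1.80-fold, 1.31 to 2.49). The interval of Eif4ebp1 overlapped with neither. In Eif4ebp3 65.5% of the 50-base words are shared with another annotated transcript. Per transcript length, Eif4ebp1 and Eif4ebp3 stood at 110.7 and 155 RPKM in the dKO-labelled library (intervals 97.0 to 125.9 and 128.7 to 185.0), with Eif4ebp3 higher, and at 150.4 and 105.7 in the control (131.7 to 171.0 and 80.8 to 135.8), where their intervals overlapped. Eif4ebp2 stood at 91.0 in the dKO-labelled library and 56.2 in the control.

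Eif6 and Eif5b, the 2 genes measured of the 5 for eIF5, eIF5A, eIF5B and eIF6, stood near equality with the deposited size factors. Eif6, encoding a factor that keeps the large ribosomal subunit from joining too early and takes part in its making, had 890 reads in the dKO-labelled library and 860 in the control (0.933, 0.848 to 1.03). Eif5b, encoding the GTPase of subunit joining, had 389 and 308 (1.14-fold, 0.978 to 1.33), with 18.2% of its 50-base words shared, with Rev1. Both lay below the median ratio of measured genes, so with that median as the baseline they were lower, at -0.61 and -0.32. Eif1, Eif1a, Eif4h and Eif4ebp1, described above, likewise had intervals that included equality with the deposited size factors. In RPKM, which scales by total reads, Eif6 was lower in the dKO-labelled library. It stood at 561 (524.5 to 598.8) there and at 739 (690.4 to 790.1) in the control. The RPKM intervals of Eif4ebp1 did not overlap between the libraries either.

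Of the elongation factors, eEF2 stood out. Eef2, which encodes the translocase of the ribosome, had 1840 reads in the dKO-labelled library and 623 in the control, 2.66-fold (2.43 to 2.92). Per length, Eef2 was level with Eif1 and Eif6 in the dKO-labelled library, at 563 (537.5 to 589.2) beside 605 and 561 RPKM, while in the control it stood at 260.0 beside 686 and 739. Eef1a1 was higher in the dKO-labelled library, at 1071 (1025 to 1118), while in the control its 780 (734.5 to 828.1) overlapped the intervals of Eif6 and Eif1. Eef1a1, the gene for the delivering factor eEF1A, had 2033 and 1086 reads (1.69-fold, 1.57 to 1.82). Of the eEF1B exchange complex, Eef1g had 730 reads in the dKO-labelled library and 322 in the control (2.04-fold, 1.79 to 2.34) and Eef1b2 664 and 363 (1.65-fold, 1.45 to 1.88). Eef1e1, which encodes a member of the multi-tRNA synthetase complex, had 30 and 17 (1.59-fold, 0.850 to 3.07). The counting interval of Eef2 did not overlap with those of Eef1a1, Eef1g or Eef1b2. Other annotated transcripts hold 60.6% of the 50-base words of Eef1a1 and 64.3% of those of Eef1g, against 7.86% for Eef2.

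Related gene groups were counted beside the factors. Of 67 measured cytosolic ribosomal protein genes, 18 were at least 2-fold higher in the dKO-labelled library (26.9%, near the 26.2% of all measured genes), and their median log2 ratio was 0.84. The highest were Rpl3 (678 reads in the dKO-labelled library and 206 in the control, 2.97-fold), Rpl22l1 (117 and 37, 2.85-fold) and Rpl10a (567 and 186, 2.75-fold). Ribosomal protein genes thus lay above the middle of the measured genes in a narrow band, from 0.66 to 1.02 between the quartiles, below the 1.28 median of eIF3. Of 12 measured cytosolic tRNA synthetase genes and their complex partners, 6 were at least 2-fold higher (median 1.09), led by Lars (42 and 10 reads, 3.79-fold, 1.87 to 8.46), Tars (99 and 30, 2.98-fold) and Aimp1 (97 and 31, 2.82-fold). Only 2 mitochondrial translation factor genes were measured, Gfm1 with 36 and 4 reads (8.11-fold, 2.91 to 31.4) and Tsfm with 36 and 6 (5.41-fold, 2.26 to 15.7). Each passed the minimum mean only through the dKO-labelled library, with normalised counts of 5.27 (Gfm1) and 7.37 (Tsfm) in the control. Lars passed in the same way, with a normalised count of 11.6 in the control. The filter therefore favoured the high ratios of Gfm1, Tsfm and Lars.

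**Figure D4:**
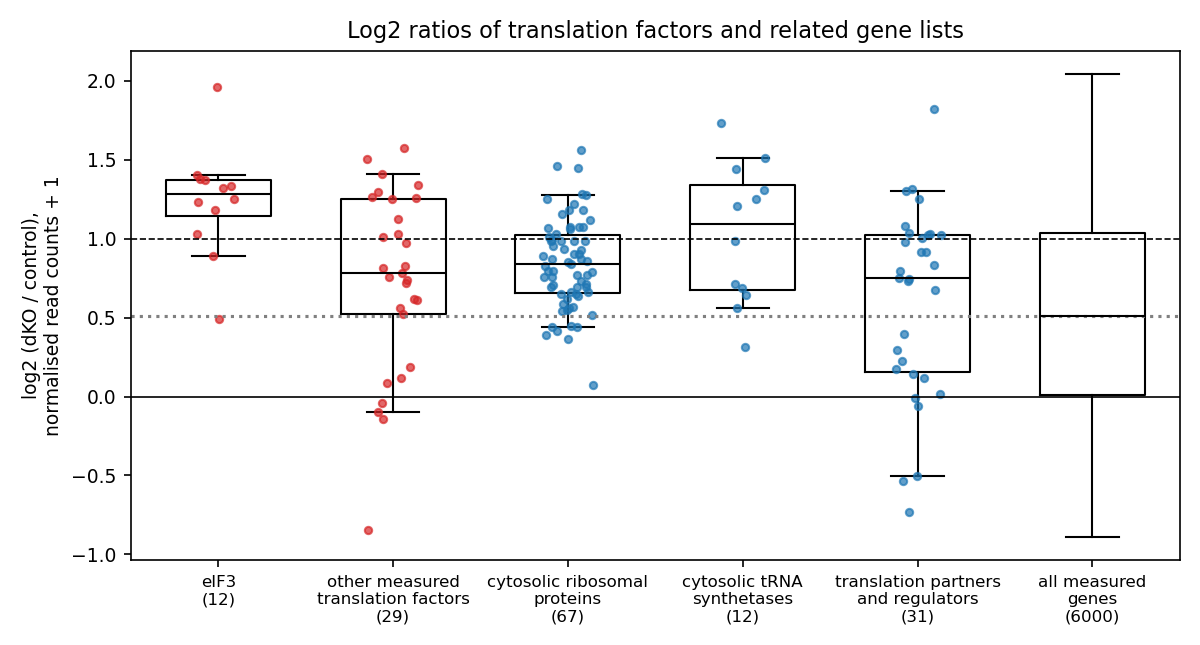
Log2 ratio of dKO to control normalised counts (vertical) for eIF3, the other measured translation factors, related lists and all measured genes; points are genes, boxes the quartiles and median, whiskers the 5th to 95th percentile, and numbers in brackets the measured genes. The eIF3 median of 1.28 lies above the medians of 0.84 for ribosomal proteins and 0.51 for all measured genes (dotted line).

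Partners and regulators of these factors were less uniform, with 10 of the 31 measured passing 2-fold upward and 0 downward (median 0.75). That is 32.3%, near the 26.2% of all measured genes. By class the number at least 2-fold higher was 3 of 5 for poly(A)-binding proteins and their partners, 2 of 7 for mTORC1 and its kinases, 3 of 6 for scanning and initiation partners, 0 of 2 for termination and recycling, 0 of 2 for the enzymes of hypusine and diphthamide, and 2 of 9 for genes around eIF2 phosphorylation, classes too small to set against that share. The largest log2 ratios belonged to Paip2b, a repressor that binds the poly(A)-binding protein (37 reads in the dKO-labelled library and 8 in the control, 4.17-fold, 1.91 to 10.4), Denr, a factor of recycling and reinitiation (89 and 31, 2.59-fold, 1.70 to 4.03), and Ppp1cc, a catalytic subunit of protein phosphatase 1 (337 and 122, 2.49-fold, 2.02 to 3.09). Paip2b passed the minimum mean of 20 only through the dKO-labelled library, with a normalised count of 9.48 in the control, so the filter favoured its high ratio. The regulatory subunits that direct the phosphatase to eIF2 alpha, named after their values were seen, were lower, as was Eif2ak3. Ppp1r15a had 137 reads in the dKO-labelled library and 206 in the control (0.600, 0.479 to 0.748), and Ppp1r15b had 294 and 384 (0.690, 0.591 to 0.805). The other 6 measured genes around eIF2 phosphorylation were likewise named after their values were seen. Atf4, whose mRNA is translated when eIF2 is phosphorylated, had 512 and 395 reads (1.17-fold, 1.02 to 1.34). Of the genes downstream of it, Trib3 had 56 and 20 reads (2.52-fold, 1.49 to 4.44), Asns 35 and 18 (1.75-fold, 0.966 to 3.29) and Ddit3 109 and 97 (1.01-fold, 0.763 to 1.35), and of these 3 intervals only that of Trib3 excluded equality. Dnajc3, for an inhibitor of eIF2 kinases, had 103 and 70 reads (1.33-fold, 0.970 to 1.82), and Gcn1l1, for the activator of the kinase GCN2, 91 and 48 (1.71-fold, 1.19 to 2.48).

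The scaling between the libraries set how many translation factor genes passed 2-fold. With total counts 10 of 41 were at least 2-fold higher, beside 16.8% of measured genes, with TMM 2, beside 11.8%, and with the upper quartile 1, beside 9.87%. For eIF3 the numbers were 10 of 12 with the deposited factors, 6 with total counts, and 1, Eif3l, with TMM, the upper quartile or the median set to 0. A scaling moves all genes by nearly the same amount, so it could not alter how far eIF3 lay from other genes. The eIF3 median was 0.76 with TMM, beside -0.01 for all measured genes, and 0.65 with the upper quartile, beside -0.12. In both, 11 of its 12 genes lay above 0, all but Eif3k. At 2-fold or more with the whole counting interval were Eef2, Eif2a, Eif3f, Eif3h, Eif3l and Eif4b, 6 of 41, beside 10.4% of measured genes.

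**Figure D5:**
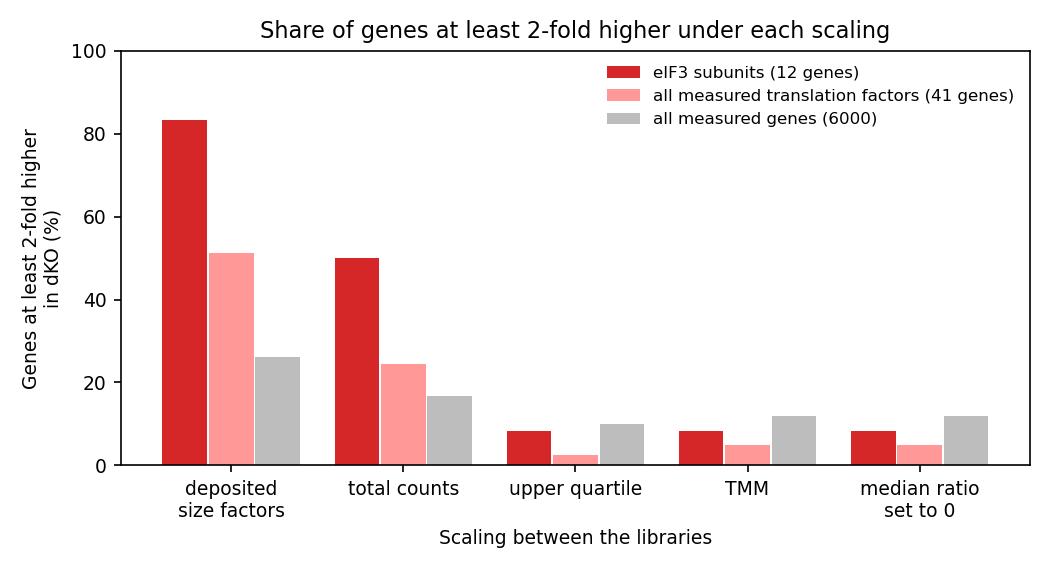
Share of genes at least 2-fold higher in the dKO-labelled library (vertical, percent) under each scaling (horizontal), for the 12 eIF3 genes, the 41 measured translation factor genes and the 6000 measured genes. With the deposited factors 10, 21 and 1574 genes passed, and with TMM 1, 2 and 709.

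Markers of other cells moved with the library label. The 10 fibroblast and smooth muscle markers had 384 reads in the dKO-labelled library and 74 in the control (4.68-fold, 3.64 to 6.08), with 9 of the 10 higher, Dcn at 0 in both and Myh11 at 0 in the control. The 7 markers of crypt stem and dividing cells had 224 and 110 reads (1.84-fold, 1.45 to 2.33), all 7 higher, with Olfm4 at 0 in the control. Paneth cell markers were 1.67-fold higher (3208 and 1729 reads, all 6 higher) and enteroendocrine markers 1.74-fold (2503 and 1294, 3 of 5 higher, Cck at 0 in both). Goblet cell markers were lower in sum, at 0.628 (2598 and 3728, 2 of 6 higher). Fcgbp (1031 and 1872) and Muc2 (671 and 1155) hold most of that sum, while Spdef (73 and 28) and Agr2 (241 and 137) were higher. Tuft cell markers were lower, at 0.238 (59 and 223, 0 of 3 higher, Dclk1 at 0 in both). Trpm5 (33 and 189) holds most of the control sum, and Pou2f3 had 26 and 34. Endothelial markers had 48 reads in the dKO-labelled library and 52 in the control over 5 genes, 4 of them higher: Lyve1 (19 and 1), Plvap (13 and 3), Vwf (10 and 0) and Cdh5 (1 and 0). Tie1 alone was lower (5 and 48) and holds most of the control sum. Enterocyte markers were 1.19-fold higher in sum (1.16 to 1.21, 8 of 11 higher). They were not uniform: Sis (357 reads in the dKO-labelled library and 37 in the control) and Lct (847 and 184) were over 2-fold higher, and 0 were 2-fold lower. The part of these shifts in the translation factor ratios was not tested, and in bulk RNA more cells of a type and more RNA per cell cannot be told apart.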

How the data were processed

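Sequencing libraries came from the TruSeq RNA v2 kit, per the labels' protocols. TopHat, DESeq and mm9 were used, per the submitters' processing notes. No source used here states the counting tool or its strand setting. The authors deposited 1 table of 22040 RefSeq transcripts. Its signal columns are normalised read counts (base means, per the file headers). All values (100%) were whole multiples of the lowest value of their column within 0.001, and reads were recovered as multiples minus 1, on the inference that 1 read had been added before normalisation. The deposited fold (ratio) and log2 columns compare the signal columns, and the deposited p-value is unadjusted; these served only where named.

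Fold changes here set recovered reads against each other after division by the size-factor ratio of 1.11, with Clopper-Pearson intervals. Calls used a pseudocount of 1 and a minimum mean of 20. With 1 library per genotype no count model could be fitted. The genes and lists were chosen with earlier results of these data known. Every measured gene of the families is named, and of each related list the 3 largest absolute log2 ratios. Transcript lengths and 50-base words came from GENCODE M21, words being matched on either strand, and promoters from RefSeq (GRCm38.p6, matched for 44 of 57 genes). The ratio and call steps were tested on simulated data. Python 3.11.15, pandas 2.3.3, numpy 2.4.6, scipy 1.17.1, matplotlib 3.10.9, R 4.3.3 and edgeR 4.0.16 (TMM factors only) were used. Alternatives were other scalings, pseudocounts, filters, row sums, thinning, and restricted gene sets. Immune cell markers are not reported here.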

Additional observations from a re-analysis of the deposited data

How the results depend on the processing

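Leaving out a replicate was not possible with 1 library per genotype. No paired analysis was possible because each genotype has a single library. The table holds no Argonaute genes under old Eif2c symbols, so that alternative was not run. The restrictions to genes with 1 RefSeq transcript and to genes sharing under 10% of their 50-base words were chosen after seeing the data.

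Genes at least 2-fold higher numbered 21 of 41 (26.2% of all measured genes), and 10 with total counts (16.8%), 1 with the upper quartile (9.87%), 2 with TMM (11.8%), 2 with the median set to 0 (11.8%), 6 with the interval beyond 2-fold (10.4%) and 13 after thinning the dKO-labelled library (16.5%). At a mean of at least 100 they numbered 12 of the 23 genes left, against 14.8% of genes at that level. Genes at least 2-fold lower numbered 0 (4.18% of all measured genes). They numbered 1 with total counts (7.07%), the upper quartile (13.1%), TMM (10.7%), the median set to 0 (10.4%) and thinning (7.30%), Eif2ak3 each time. A count of 1 of 41 lies below each of these shares. The median of 1.01 became 0.72 with total counts, 0.38 with the upper quartile, 0.49 with TMM, 0.50 with the median set to 0, 0.96 with a pseudocount of 5, 0.75 with no filter, 0.69 after thinning and 1.12 with 1 RefSeq transcript.

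With total counts, the upper quartile, TMM and the median set to 0, in that order, the median was 0.44, 0.10, 0.21 and 0.23 for eEF1, 0.23, -0.11, 0.0019 and 0.018 for eIF1, 0.72, 0.38, 0.49 and 0.50 for eIF2 and eIF2B, 0.99, 0.65, 0.76 and 0.78 for eIF3, 0.72, 0.38, 0.50 and 0.51 for eIF4, and 0.53, 0.20, 0.31 and 0.32 for the eIF4E-binding proteins. At a mean of at least 100 it was 0.11 for eIF1, 0.81 for eIF2 and eIF2B, 0.67 for eIF4 and -0.14 for the eIF4E-binding proteins, each from fewer genes. With no filter it was 0.81, 0.53 and 0.34 for the last 3 of these. Summed rows gave eIF4 1.26, since Eif4e2 was then measured. With 1 RefSeq transcript eIF1 was at 0.93 and eIF4 at 1.26, and with little shared sequence eIF1 was at 1.34, eIF4 at 0.78 and the eIF4E-binding proteins at 0.41. A depth of 1058196 reads in the dKO-labelled library and 775827 in the control leaves genes under about 20 reads without a usable ratio.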
